A study of Mus musculus with 16 samples.

Results

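Promoter Capture Hi-C contacts are described here for the promoters of 9 mouse genes of hepatic glucose metabolism: Pck1, G6pc, Fbp1, Pcx, Pklr, Pfkfb1, Pfkfb3, Slc2a2 and Ppargc1a. A gene was represented by the HindIII restriction fragment that holds its annotated start and that was listed as a bait. All 9 starts lay on such a bait, of 21768 annotated gene starts that did so. Captured fragments without a listed pair are not among the baits counted here. Together the 9 baits took part in 178 of the 247177 distinct fragment pairs listed at any timepoint, and these 178 pairs are called contacts below. Promoter Capture Hi-C ligates DNA ends that lie close together in fixed nuclei, enriches the ligation products of promoter fragments by hybridization to RNA baits, and reports pairs of restriction fragments.

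Livers were taken from wild type male C57BL/6 mice, 8 week old, kept under 12 h of light and 12 h of dark and fed ad libitum. The 4 groups are 4 hours: ZT0 (lights on), ZT6, ZT12 (lights off) and ZT18, where ZT is Zeitgeber time in hours. The sample titles also give lane numbers, which were not the same for the 4 hours. Each timepoint had 3 pools of 2 livers, sequenced as 16 samples in all, and the pools were merged into 1 list of interactions per timepoint. The value of a pair is its CHiCAGO score, derived from a weighted p-value and larger the more the reads of a pair exceed a fitted background for its distance, and only pairs with a score of at least 5 were listed. A score is no frequency of contact, so scores are compared below by their differences, and a pair missing from a list is one that scored under 5 there. With 1 merged list per timepoint no value has a replicate error and no test between timepoints could be made. Intervals are 95% Wilson intervals, which cover counting error only. Neighbouring fragments contacted by 1 bait are not independent of each other. Bulk liver was used, so a contact in fewer cells and a rarer contact in every cell cannot be told apart.

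In the fasted state the liver makes glucose from lactate, amino acids and glycerol. Pcx (pyruvate carboxylase) makes oxaloacetate, Pck1 (the cytosolic phosphoenolpyruvate carboxykinase) turns it into phosphoenolpyruvate, Fbp1 (fructose-1,6-bisphosphatase) removes a phosphate farther along the path, and G6pc (the catalytic subunit of glucose-6-phosphatase) releases free glucose. Pklr (the liver and red cell pyruvate kinase) acts on the opposing path of glycolysis. The bifunctional enzymes Pfkfb1 and Pfkfb3 set the level of fructose-2,6-bisphosphate. Slc2a2 encodes GLUT2, the glucose transporter of hepatocytes, and Ppargc1a encodes PGC-1alpha, a coactivator of gluconeogenic genes in fasting.

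To show what was captured, the 250 bases upstream of 3 gene starts are given 5′ to 3′ on the gene's strand, from build mm9. That of Pck1 (chr2:172978299-172978548, plus strand) is shown because every contact it kept in all 4 lists scored higher at ZT12 than at ZT0. Those of Pcx (chr19:4510222-4510471, plus strand) and Pfkfb3 (chr2:11423729-11423978, minus strand) are shown because they alone of the 9 hold the E-box CACGTG, the sequence bound by the clock factors CLOCK and BMAL1. The E-box is in capitals. It was present in the same stretch of 6.52% of 22375 protein-coding genes.
Pck1: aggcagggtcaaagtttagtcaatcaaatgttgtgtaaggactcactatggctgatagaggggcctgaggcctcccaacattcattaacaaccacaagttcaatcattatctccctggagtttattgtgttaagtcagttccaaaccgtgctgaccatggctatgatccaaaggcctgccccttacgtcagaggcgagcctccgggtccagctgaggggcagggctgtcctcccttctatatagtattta
Pcx: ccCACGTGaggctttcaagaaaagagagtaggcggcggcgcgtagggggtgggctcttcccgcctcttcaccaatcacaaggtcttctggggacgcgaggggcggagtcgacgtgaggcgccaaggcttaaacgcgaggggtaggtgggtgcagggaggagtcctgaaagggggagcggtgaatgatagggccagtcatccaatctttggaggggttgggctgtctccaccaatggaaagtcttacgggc
Pfkfb3: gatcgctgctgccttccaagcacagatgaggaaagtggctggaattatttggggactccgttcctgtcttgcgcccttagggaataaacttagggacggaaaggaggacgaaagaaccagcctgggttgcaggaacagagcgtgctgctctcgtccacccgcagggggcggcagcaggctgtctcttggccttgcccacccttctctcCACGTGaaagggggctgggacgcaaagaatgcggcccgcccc
None of the 9 stretches held the cAMP response element TGACGTCA, the Nr5a2 motif CAAGGTCA, the forkhead motif TGTTTAC, the Hnf4a motif CAAAGTCCA or the D-box TTATGTAA or TTATGCAA on either strand. All 250 bases lay on the bait except at Pfkfb1, where a HindIII site left 123 of them on it. A match or its lack describes these letters only. Variants that differ by a letter, such as TTACGTCA in the Pck1 stretch beside the cAMP response element TGACGTCA, were not counted.

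A second set of sequences marks distal fragments. A core of the consensus of CTCF, the insulator protein often found at the ends of chromatin loops, was searched on both strands. It was found in 10 of the 178 contacted fragments (5.62%, 95% interval 3.08 to 10) and in 3.85% of all 129886 listed fragments searched, which were slightly longer (median 2577 bp against 2375 bp). The 3 matches below are shown because they lie in the highest-scoring contact of Fbp1, the highest-scoring contact of Pfkfb3, and the only contact of Ppargc1a listed at all 4 timepoints. The fourth is the match in the part of the distal Pck1 block nearest to the gene. Each is printed on the plus strand of mm9 with 20 bases on either side and the match in capitals.
Fbp1, chr13:63434066-63434117: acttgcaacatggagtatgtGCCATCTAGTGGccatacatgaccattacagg
Pfkfb3, chr2:11253285-11253336: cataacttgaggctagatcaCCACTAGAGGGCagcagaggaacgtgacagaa
Ppargc1a, chr5:52456446-52456497: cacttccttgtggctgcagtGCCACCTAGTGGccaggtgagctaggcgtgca
Pck1, chr2:173379541-173379592: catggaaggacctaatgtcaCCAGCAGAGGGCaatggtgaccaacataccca
Longer fragments held a match more often. Of listed fragments of 2 to 4 kb, the size of the Fbp1 and Pfkfb3 fragments, 2.94% held one. Of those under 1 kb, the size of the Ppargc1a fragment, 0.655% did. At 4 to 8 kb, the size of the Pck1 fragment, it was 5.9%. Besides Fbp1 and Pfkfb3, no promoter had a match in its highest-scoring contact, and this includes Ppargc1a and Pck1. Matches not shown lay in strong and weak contacts, from rank 2 of 18 in Pklr (best score 19.26) to rank 31 of 31 in Pcx (5.13). A match was held by 7.81% (3.38 to 17) of contacts listed at all 4 timepoints and 3.57% (0.985 to 12.1) of those listed at 1 only. Of contacts with a score of at least 10 it was 7.14% (2.46 to 19). These intervals overlap. This motif was added after the contacts had been seen, and a match is no evidence that CTCF is bound.

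The number of contacts differed widely among the 9 promoters. Fbp1 had 61 over the 4 lists, Pcx 31, Pfkfb3 26, Pck1 22, Pklr 18, Ppargc1a 12, Pfkfb1 5, G6pc 2 and Slc2a2 1. The median over the 18165 baits with a listed pair was 9, with percentiles 25 and 75 at 4 and 21. Among these baits Fbp1 stood at percentile 96.6 and Slc2a2 at percentile 4.44. Captured fragments with no listed pair are not ranked, so these percentiles do not cover all captured promoters. G6pc and Slc2a2, which are hallmark genes of hepatocytes, were the 2 with the fewest. The G6pc and Pfkfb3 baits were long, at 17656 bp and 15633 bp, against 1193 bp to 5610 bp for the other 7. These 2 baits gave 2 and 26 contacts.

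**Figure D1:**
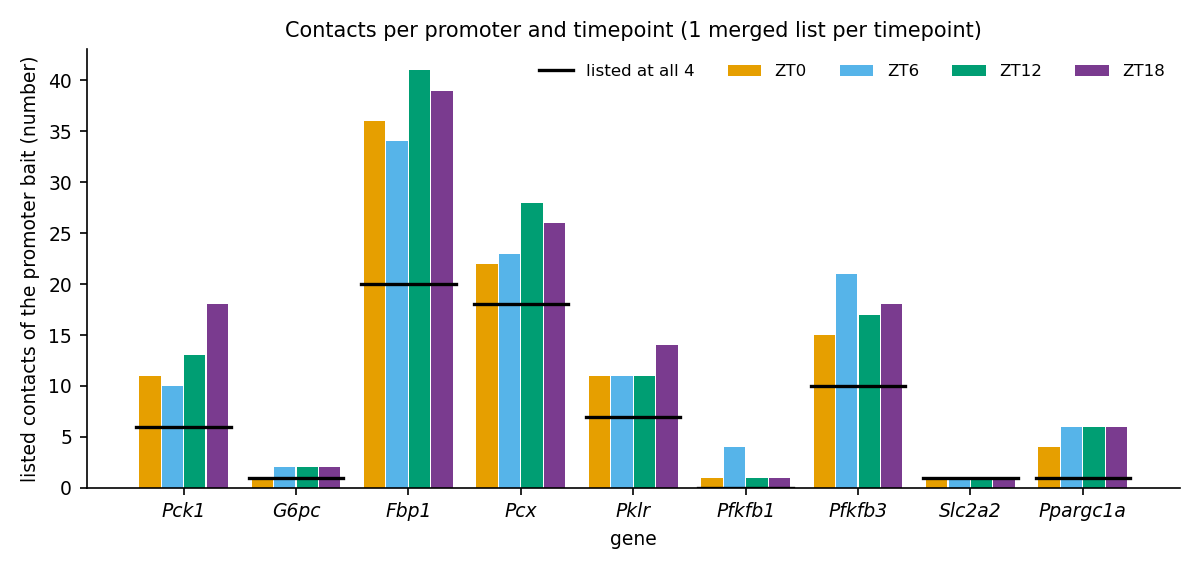
Bars give the number of listed contacts of each promoter bait (y axis) at ZT0, ZT6, ZT12 and ZT18, from 1 merged list per timepoint, and the black line gives how many of them were listed at all 4. All 4 Fbp1 bars exceed 30, and G6pc, Pfkfb1 and Slc2a2 never exceed 4.

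Summed over the 9 promoters, the ZT0 list held 102 contacts and the ZT6 list 112, while ZT12 had 120 and ZT18 had 125. The lists themselves held 146262, 154775, 151529 and 151347 pairs in that order. Per 10000 listed pairs the promoters thus had 6.97 contacts (interval 5.75 to 8.46) in the ZT0 list and 7.24 (6.01 to 8.71) in the ZT6 list. The corresponding shares were 7.92 (6.62 to 9.47) for ZT12 and 8.26 (6.93 to 9.84) for ZT18, and all 4 intervals overlap. Of the 178 contacts, 64 were listed at all 4 timepoints, which is 36% (29.3 to 43.2) beside 32.5% of all pairs. A further 56 were listed at 1 timepoint only, which is 31.5% (25.1 to 38.6) beside 35.2% of all pairs. Both shares lay near those of the whole data set. A score of at least 10 at any timepoint was reached by 42 contacts, 23.6% (18 to 30.3) beside 21.5% of all pairs.

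The share of contacts listed throughout the day varied from gene to gene. For Pcx, 18 of 31 contacts were listed at all 4 timepoints (58.1%, 40.8 to 73.6), the highest share among the promoters with at least 5 contacts. For Fbp1 it was 20 of 61 (32.8%, 22.3 to 45.3), for Pfkfb3 10 of 26 and for Pklr 7 of 18. Ppargc1a had 1 of 12 (8.33%, 1.49 to 35.4) and Pfkfb1 none of 5, so most contacts of these promoters were listed at 1 or 2 timepoints. Their median scores were 6.29 for Ppargc1a and 5.86 for Pfkfb1, near the list minimum of 5, and their highest scores were 8.7 and 8.09.

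**Figure D2:**
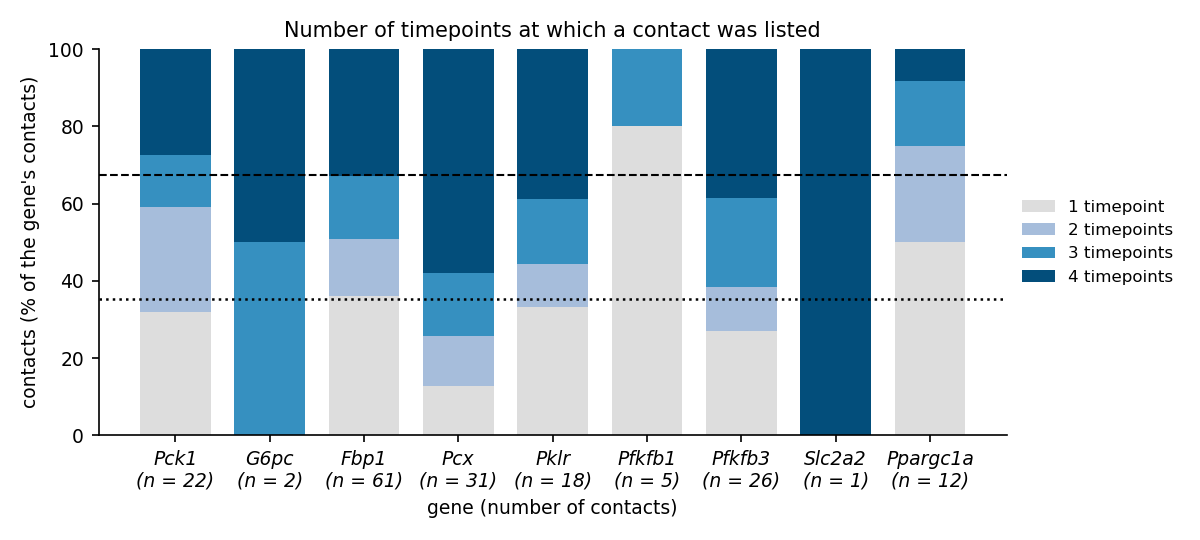
Stacked bars give, for each gene, the share of its contacts (y axis, %) listed at 1, 2, 3 or 4 timepoints. Over all pairs, 32.5% lie above the dashed line (all 4 timepoints) and 35.2% below the dotted line (1 timepoint), and among genes with at least 5 contacts Pcx has the largest dark part.

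Between ZT0 and ZT12, more of the 9 promoters' contacts were listed at the later hour alone than at the earlier one alone. Of 146 contacts listed at either hour, 44 were listed at ZT12 and not at ZT0 (30.1%, 23.3 to 38, beside 24.7% of all pairs), and 26 at ZT0 and not at ZT12 (17.8%, 12.5 to 24.8, beside 22% of all pairs). Between ZT6 and ZT18, 34 of 146 were listed at ZT18 only of the 2 hours (23.3%, beside 22.5% of all pairs) and 21 at ZT6 only (14.4%, 9.6 to 21, beside 24.2% of all pairs). The scores had the same direction. Among the 64 contacts listed at all 4 timepoints, 45 scored higher at ZT12 than at ZT0 (70.3%, 58.2 to 80.1) beside 53.4% of all such pairs, and the median difference was 1.42 score units beside 0.20 for all such pairs. At ZT18 against ZT6 it was 42 of 64 (65.6%, 53.4 to 76.1) beside 50.9%. The highest of the 4 scores fell at ZT12 for 33 of the 64 (51.6%, 39.6 to 63.4) beside 25.7% of all such pairs. Of the 64 contacts, Fbp1 gave 20, Pcx 18, Pfkfb3 10, Pklr 7 and Pck1 6. Many of their fragments lie side by side, so the intervals are too narrow. The hour of 3 lists is also uncertain, since statistics supplied by the study give their lengths to different hours than the sample labels, which were followed here. In that other order the list read here as ZT12 is that of ZT6, the list read as ZT18 is that of ZT12 and the list read as ZT6 is that of ZT18, and the share with the highest score at ZT12 becomes 21.9%. The direction between ZT6 and ZT18 then turns, with 26.6% (17.3 to 38.5) scoring higher at ZT18 than at ZT6 beside 49.4% of all such pairs, 18.4% of contacts listed at ZT18 but not at ZT6 and 23.8% the other way. The share scoring higher at ZT12 than at ZT0 is 67.2% (55 to 77.4) in that order, beside 54.1% of all such pairs.

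**Figure D3:**
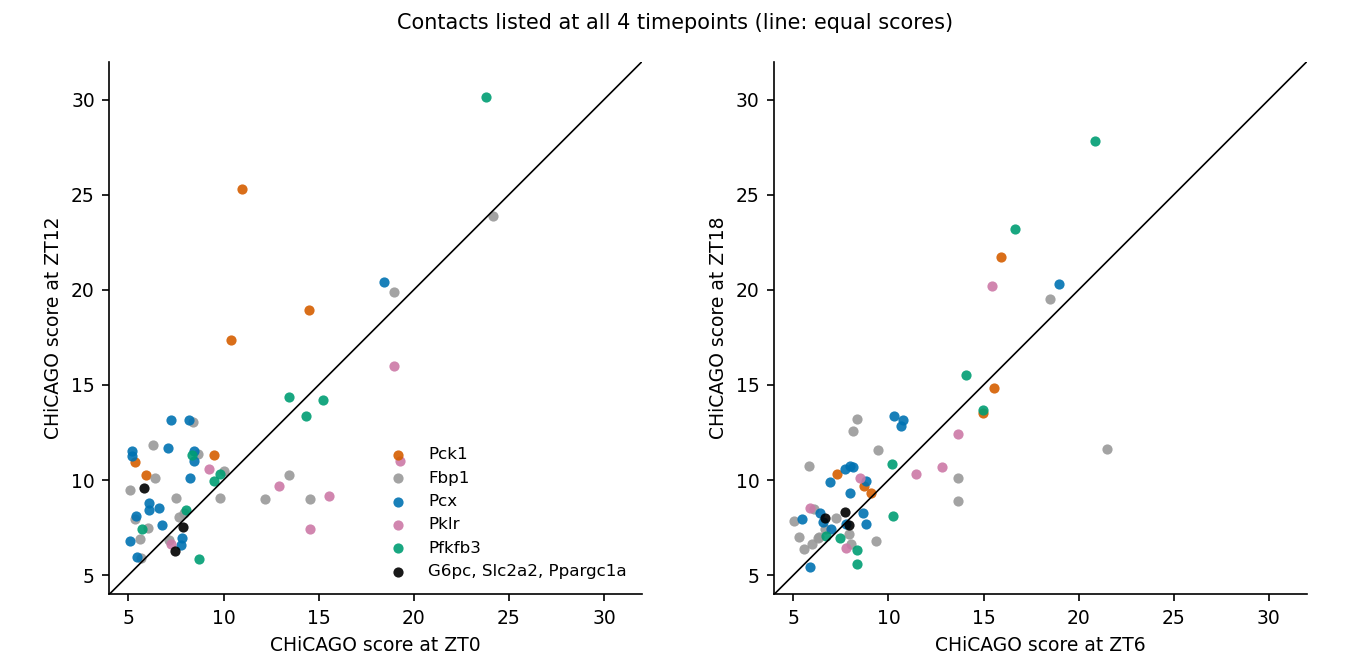
Each point is a contact listed at all 4 timepoints (64 contacts, coloured by gene), with its CHiCAGO score at ZT12 against ZT0 (left) and at ZT18 against ZT6 (right), and the line marks equal scores. All 6 Pck1 points lie above the line on the left, whereas 6 of the 7 Pklr points lie below it.

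Among the gluconeogenic enzymes, Pck1 had an upstream block of contacts with its highest scores at ZT12. Its bait (chr2:172977974-172979212, 1239 bp) contacted a block 6.37 to 46.6 kb upstream that runs over Ctcfl, a testis-expressed paralog of CTCF, and the uncharacterized gene 1300015D01Rik. All 6 Pck1 contacts listed at every timepoint lay there. Each of them scored higher at ZT12 than at ZT0, by 1.84 to 14.36 score units (median 5.02), and each had its highest score at ZT12. Of 5648 baits with at least 5 contacts listed at all 4 timepoints, 2.8% likewise had every one of them higher at ZT12 than at ZT0. Pck1 was picked out by this same value, so the 2.8% is a description and no test. For Fbp1 and Pfkfb3 the share was 70% each, and 23.2% of these baits had at least that share.

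The strongest Pck1 contact was an exon-bearing fragment of Ctcfl (chr2:172933488-172935316), which scored 10.95 (ZT0), 15.94 (ZT6), 25.31 (ZT12) and 21.73 (ZT18). Beside it, the fragment with the start of 1300015D01Rik (chr2:172935317-172938667), itself a bait, scored 14.51, 15.57, 18.93 and 14.85 at the same hours. The fragment with the Ctcfl start (chr2:172940405-172954380) scored 9.48, 9.09, 11.32 and 9.3. The difference between ZT12 and ZT0 was thus largest at the first of these fragments and smallest at the Ctcfl start. Nearer to the gene, 5 further fragments between 6.37 and 21.9 kb upstream were absent from the ZT0 list and all 5 were listed at ZT12, with scores of 5.35 to 9.04. The block as a whole held 6 listed fragments (ZT0), 9 (ZT6), 11 (ZT12) and 9 (ZT18).

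A second Pck1 block lay 399 to 424 kb downstream, around Ankrd60, a gene for an ankyrin repeat protein, and followed another course. Of its 9 fragments, the ZT0 list held 5, the ZT6 list none, the ZT12 list 2 and the ZT18 list 8. The median score of those listed was 5.25 at ZT0, 6.12 at ZT12 and 7.81 at ZT18. None was listed at all 4 timepoints. The fragment nearest to Pck1 in this block, the one with the CTCF match shown above, scored 9.3 at ZT0 and 7.78 at ZT18. In the alternative order of the lists, this block would be listed 8 times at ZT12 and never at ZT18, and the upstream block would be at its highest at ZT6. In either order, 5 of the 6 upstream contacts listed throughout the day were lowest at ZT0.

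**Figure D4:**
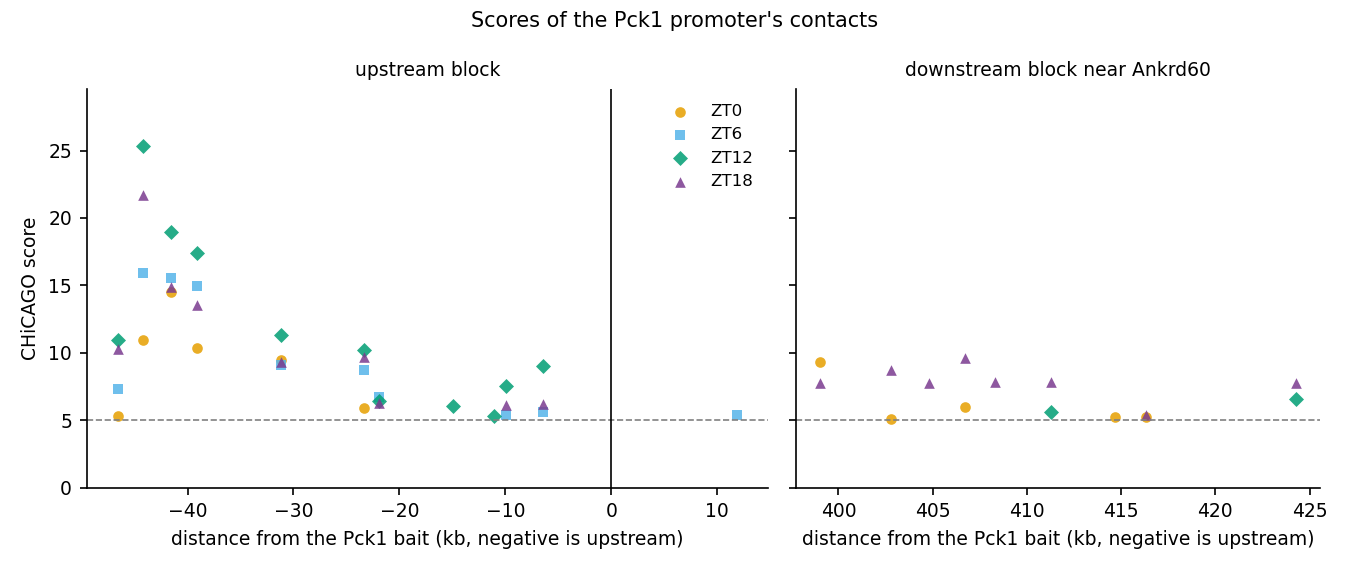
Points give the CHiCAGO score (y axis, dashed line at the list minimum of 5) of each Pck1 contact against its distance from the Pck1 bait (kb), coloured by timepoint, for the upstream block (left) and the block near Ankrd60 (right). ZT12 lies highest at each upstream contact listed at all 4 timepoints, ZT18 supplies 8 of the 9 fragments of the distal block, where ZT6 has none, and the contact with the Gcnt7 bait, 697 kb upstream and listed at ZT18 only, is outside the axes.

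Fbp1 had the most contacts, and all 61 lay on its upstream side. Its bait also holds the start of the annotated gene Gm17367, the only other gene start on any of the 9 baits, and contacts of these 2 starts cannot be told apart. They formed a near block of 10 fragments at 11.6 to 29.2 kb, with no annotated gene in its fragments listed throughout the day, and a distal block of 48 fragments at 341 to 546 kb. The remaining 3 were single listings 1167 to 1239 kb away. In the near block a fragment between genes (chr13:63007350-63009486) scored 18.96, 18.47, 19.88 and 19.53 at ZT0, ZT6, ZT12 and ZT18, values that lie close together. Next to it, the smaller fragment chr13:63006524-63007349, which also holds a CTCF match, scored 5.34, 6.09, 7.94 and 8.47.

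The distal Fbp1 block covered the aminopeptidase gene 2010111I01Rik and Fancc, a gene of the Fanconi anemia DNA repair pathway. Its peak was the fragment with the start of the noncoding gene Gm16133 inside Fancc (chr13:63431617-63435255), a bait that scored 24.14 (ZT0), 21.48 (ZT6), 23.87 (ZT12) and 11.61 (ZT18). Its score at ZT18 was by far the lowest of the 4, which was not so for the peak of the near block. The bait with the microRNA genes Mir23b and Mir27b (chr13:63399869-63407274) was also contacted throughout the day and scored 5.08, 7.95, 9.5 and 7.15. That fragment carries the start of AC130827.1 as well. Of the distal block, the ZT0 list held 29 fragments, the ZT6 list 25 and the ZT12 and ZT18 lists 32 each, and 15 were in all 4. Over both blocks, 14 of the 20 Fbp1 contacts listed at every timepoint scored higher at ZT12 than at ZT0, with differences from -5.54 to 5.55.

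The muscle isoform gene Fbp2, whose bait lies 28.3 kb from that of Fbp1, reached into the same distal block. It shared 10 contacted fragments with Fbp1, which are 50% of the 20 contacts of Fbp2 and 16.4% of those of Fbp1. At the Gm16133 fragment the Fbp2 scores were 5.5, 8.62, 5.09 and 7.1, below those of Fbp1 at each of the 4 hours. It was the only fragment that both promoters contacted throughout the day. The promoter most like Fbp1 in its contacts was that of 2010111I01Rik, with 37 shared fragments, 60.7% of the Fbp1 contacts and 84.1% of the 44 contacts of 2010111I01Rik.

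Pcx contacts lay mostly inside its own gene. All 31 were downstream of the start and 23 touched the gene body, most of them introns. The 26 fragments from 23.4 to 135 kb included every one of the 18 contacts listed throughout the day, of which 16 scored higher at ZT12 than at ZT0 (88.9%, 67.2 to 96.9) and 15 had their lowest score at ZT0. The differences ranged from -1.21 to 6.30 with a median of 2.46. A share this high was seen in 4.55% of the 5648 baits compared, which is a description and no test. An intronic fragment 26.7 kb from the bait (chr19:4536013-4537012) scored 7.21 (ZT0), 7.7 (ZT6), 13.14 (ZT12) and 10.59 (ZT18). A smaller one at 78.3 kb (chr19:4587846-4588235) scored 5.2, 7.99, 11.28 and 10.72.

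The highest Pcx scores were at the bait with the start of Rce1, which encodes a protease of prenylated proteins and lies just beyond the 3′ end of Pcx (chr19:4624900-4626399). They were 18.41, 18.99, 20.4 and 20.3 and so differed little between hours, whereas both intronic fragments named above scored higher at ZT12 and ZT18 than at ZT0. The neighbouring bait with the start of Lrfn4, a gene for a synaptic adhesion protein, scored 6.07, 6.54, 8.79 and 7.79. A weaker group of 4 fragments in Spnb3, a spectrin gene 211 to 242 kb away, was listed 3 times at ZT12, once each at ZT0 and ZT18, and never at ZT6. In its contacted fragments Pcx was most like 2010003K11Rik, whose bait adjoins its own, with 16 shared fragments (51.6% of Pcx contacts and 84.2% of the other's 19).

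G6pc had 2 contacts. The fragment with the last part of G6pc itself (chr11:101238270-101240662), 11.8 kb from the bait's middle, scored 7.86, 7.95, 7.54 and 7.62, with no clear difference between hours. The other, 29.4 kb away and between genes, was absent at ZT0 and scored 5.33, 5.2 and 5.91 at ZT6, ZT12 and ZT18.

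**Figure D5:**
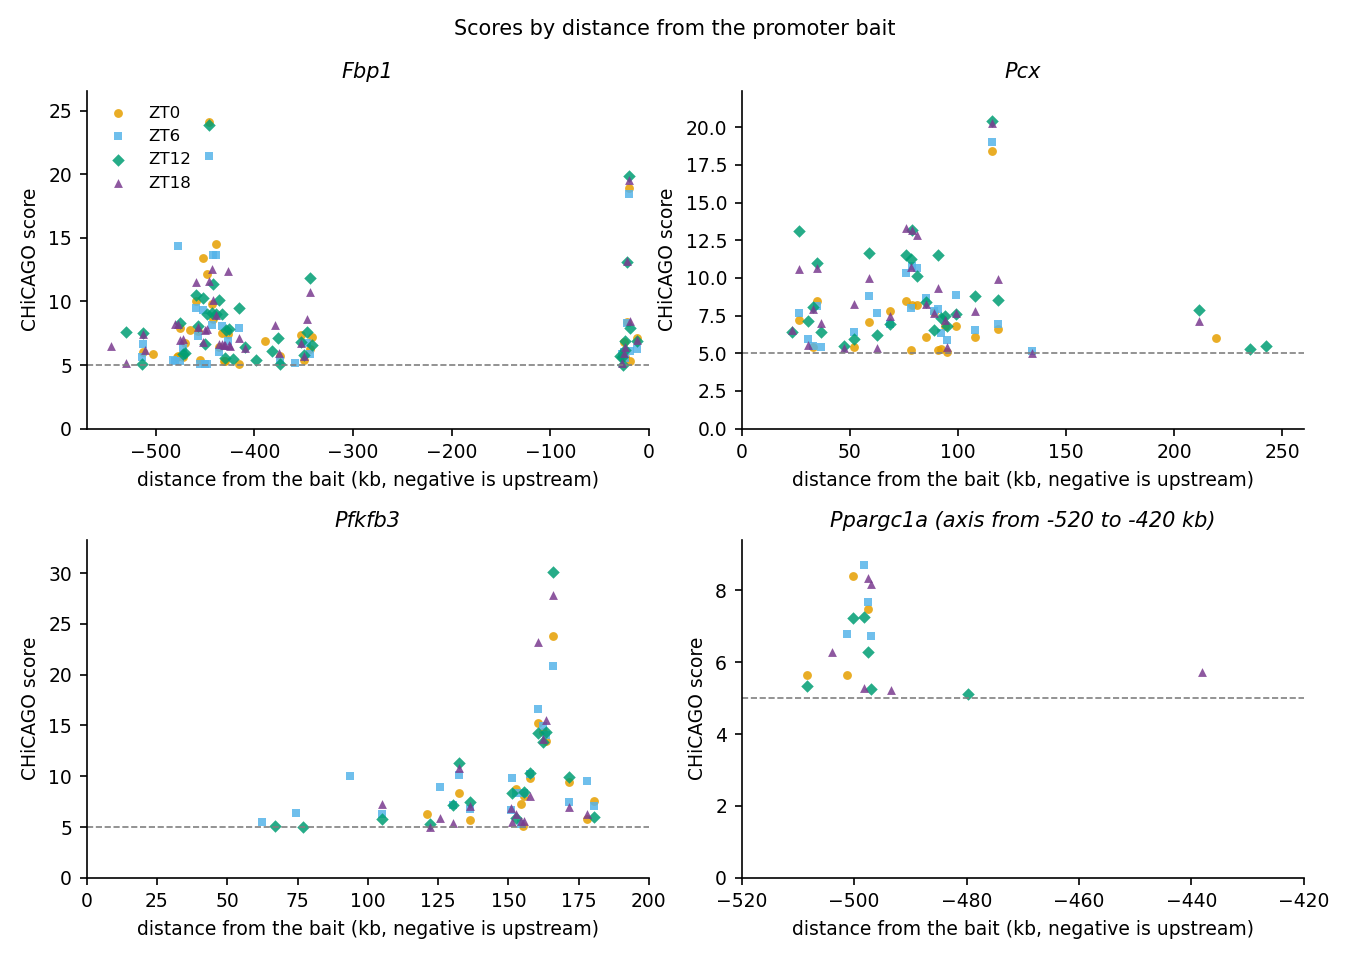
Points give the CHiCAGO score (y axis, dashed line at the list minimum of 5) of each contact of Fbp1, Pcx, Pfkfb3 and Ppargc1a against distance from the bait (kb), coloured by timepoint, with contacts beyond the axes not drawn. Fbp1 has 2 separate upstream groups, Pcx a broad downstream one with a peak at the Rce1 bait, and Pfkfb3 a peak 166 kb downstream.

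Pklr contacted mainly other promoters. Of its 18 contacts, 17 (94.4%, 74.2 to 99) reached another bait, beside 26.7% of the contacts of all baits. Over all 9 promoters the share was 29 of 178 (16.3%, 11.6 to 22.4), and without Pklr it was 7.5%. Pklr lies among many genes, and the contacted baits hold other gene starts on both sides. Upstream, the bait with the start of Rusc1, an adaptor protein gene (chr3:88896730-88903158), scored 18.97, 15.44, 15.97 and 20.22, the highest value of Pklr. Its neighbour with the start of Fdps, which encodes farnesyl diphosphate synthase of the mevalonate pathway, scored 9.22, 7.79, 10.57 and 6.41. The bait nearest upstream, with Mir720, scored 7.22, 5.86, 6.64 and 8.52.

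Downstream the Pklr scores were highest at ZT0. The bait with the start of Thbs3, a thrombospondin gene (chr3:89017136-89022113), scored 19.26 (ZT0), 13.64 (ZT6), 10.98 (ZT12) and 12.4 (ZT18), and it carries a CTCF match. The bait of Hcn3, an ion channel gene, and Clk2, a kinase gene, scored 15.56, 12.84, 9.18 and 10.69. The bait of Scamp3, Fam189b and Gm16069 scored 12.91, 11.44, 9.69 and 10.34, and that of Trim46 scored 14.52, 8.5, 7.45 and 10.1. All 4 were highest at ZT0 and lowest at ZT12 and so ran opposite to Pck1 and Pcx. Of the 7 Pklr contacts listed at every timepoint, 1 scored higher at ZT12 than at ZT0, with a median difference of -3.22. A share that low or lower was seen in 3.12% of the baits compared, which again is a description and no test. The bait of Dap3, a gene for a mitochondrial ribosomal protein 185 kb upstream, was listed at ZT0, ZT12 and ZT18 with 9.11, 8.45 and 11.3. The contacts of Pklr were most like those of Slc50a1, whose 7 contacted fragments were all among the 18 of Pklr.

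The 2 bifunctional enzymes had unlike sets of contacts. Pfkfb1 had 5 weak contacts, 4 of them listed at ZT6 and 1 at each other hour, and no score reached 10. The highest was 8.09 at ZT6 for the bait of Gnl3l, a nucleolar GTPase gene, and Gm15152 (chrX:147437318-147453073), which was listed at no other hour. The baits of Tsr2 and Hsd17b10 were listed once each, with 5.07 at ZT0 and 5.62 at ZT6. A fragment between genes 76.4 kb upstream was the only one listed at 3 hours, with 5.11, 5.86 and 7.27 at ZT6, ZT12 and ZT18. In the alternative order the 4 contacts at ZT6 would be those of ZT18. The neighbouring bait, with the start of Apex2, contacted 3 fragments, all of which Pfkfb1 contacted too.

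Pfkfb3 had 26 contacts, all of them beyond the 3′ end of the gene and 62.3 to 181 kb from the bait, with no other protein-coding gene start in between. The peak was the fragment between genes with the CTCF match shown above (chr2:11250260-11253428), which scored 23.77 (ZT0), 20.87 (ZT6), 30.14 (ZT12) and 27.83 (ZT18). The value at ZT12 was the highest score of any contact of the 9 promoters. Of its neighbours, chr2:11255995-11258132 scored 15.22, 16.65, 14.22 and 23.21, and chr2:11253429-11255066 scored 13.46, 14.09, 14.35 and 15.53. The fragment with the start of the noncoding gene Gm13293 (chr2:11258133-11261922) scored 9.81, 10.23, 10.34 and 8.09. These 4 fragments of 1 cluster did not share an order of the hours. Of the 10 Pfkfb3 contacts listed at every timepoint, 7 scored higher at ZT12 than at ZT0, and in the alternative order of the lists the share was 50%. Listed fragments numbered 15 (ZT0), 21 (ZT6), 17 (ZT12) and 18 (ZT18).

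Slc2a2 had a single contact, with a bait 48.4 kb downstream that holds the start of AC122490.1 and lies in 1700112D23Rik (chr3:28642285-28645666). It was listed throughout the day and scored 5.82 (ZT0), 6.67 (ZT6), 9.6 (ZT12) and 8 (ZT18). The same fragment was contacted by 1 other bait, that of Tnik, a kinase gene.

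Ppargc1a, the transcriptional coactivator, had its contacts in a gene-poor stretch. Of 12, 10 lay 438 to 508 kb upstream and 9 of these in 31.7 kb of sequence. No score reached 10. The fragment listed at every timepoint (chr5:52456287-52456958, 672 bp, with the CTCF match shown above) scored 7.47, 7.69, 6.28 and 8.34. The highest score, 8.7 at ZT6, belonged to the adjacent fragment chr5:52456959-52457462, which scored 7.27 at ZT12 and 5.28 at ZT18 and was absent at ZT0. Single fragments here differed between lists, while the stretch as a whole was listed with 4, 4, 6 and 5 fragments at ZT0, ZT6, ZT12 and ZT18.

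The contacted fragments that are no baits could be set against all others for features that the choice of genes did not use. Of 149 such fragments, 100 were listed with another bait as well (67.1%, 59.2 to 74.1, beside 68.4% of all such contacts). The genes differed here. For Fbp1 it was 54 of 59, for Pck1 16 of 18 and for Pcx 25 of 29, but for Pfkfb3 1 of 26 and for Ppargc1a none of 12. The distal fragments of Pfkfb3 and Ppargc1a were thus listed almost solely with their own promoter. The promoter held the protein-coding gene start nearest to the fragment in 46 of the 149 cases (30.9%, 24 to 38.7, beside 13.8% of all such contacts of protein-coding promoters), and 19 of these 46 belonged to Pfkfb3. The E-box was found in 39.3% of the 178 contacted fragments beside 32.7% of listed ones. Of the other motifs, that of Nr5a2 was in 20.8% beside 20.7%, the forkhead motif in 34.3% beside 35.3%, that of Hnf4a in 7.3% beside 5.29%, the D-box in 19.7% beside 21% and the cAMP response element in 3.37% beside 2.75%. The median distance of the contacts was 175 kb beside 162 kb for all pairs. No contact joined 2 of the 9 baits and none crossed chromosomes, while 198 of all 247177 pairs did cross.

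For the wider pathway, 53 further genes of glycolysis, gluconeogenesis and their control were considered, of which 47 had their start on a bait. None of these 47 baits was contacted by any of the 9 promoters. The same share over all listed pairs was not computed. Only 198 of 247177 pairs crossed chromosomes and the median distance was 162 kb, so this lack says little about the pathway. The 47 baits had a median of 12 contacts, from 1 to 129, and 338 of their 959 contacts (35.2%) were listed at all 4 timepoints. The most contacts belonged to Foxo1, the insulin-responsive forkhead factor, with 129, then Gapdh with 87 and the muscle enolase gene Eno3 with 69. The fewest belonged to Pgam2 and Mdh1 with 1 each and Pdk2, a pyruvate dehydrogenase kinase gene, with 2. Summed over the 47, the ZT0, ZT6, ZT12 and ZT18 lists held 569, 608, 639 and 636 contacts, or 38.9, 39.3, 42.2 and 42 per 10000 listed pairs.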

How the data were processed

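Promoter Capture Hi-C libraries of mouse liver were cut with HindIII and captured with RNA baits to promoter fragments. Reads were processed with HiCUP, and the deposited value of each fragment pair is a CHiCAGO score, which the authors computed per timepoint after merging pools and listed from 5 upward (build mm9, per the labels). Versions of these programs are not given in the sources used here. From the 4 lists, a pair counted irrespective of which end was the bait, and a promoter's contacts were all pairs with an end on the bait that holds its GENCODE vM1 gene start. Distances are between fragment midpoints, and blocks join contacted fragments on the same side of a start with gaps up to 25 kb. Motifs were searched in the mm9 reference on both strands. Python 3.11.15, scipy 1.17.1 and matplotlib 3.10.9 were used, and the counting was tested on simulated lists. Every column of scores was used.

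Groups followed the sample labels. The members, gene lists and alternatives were chosen with earlier results of these data known, and the block gap, the CTCF motif and the comparisons across baits were chosen after the contacts had been seen. Genes named are the 9 members, genes starting on fragments contacted with a score of at least 10 or at all 4 timepoints, the gene at each promoter's strongest contact, the promoter sharing most fragments, and the pathway genes with the most and fewest contacts. Ankrd60, Gcnt7, Fbp2, Tsr2, Hsd17b10, Gm17367, Spnb3, Tnik, 1700112D23Rik, Fancc and 2010111I01Rik as a contacted gene were named after their values were seen. Pathway names were matched in the annotation for 50 of 53 genes directly and for 3 through RefSeq synonyms (GRCm38.p6). A contact of Pklr is not reported here.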

Additional observations from a re-analysis of the deposited data

How the results depend on the processing

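No paired analysis was possible because scores exist for merged pools only, and a replicate could not be left out either. A higher score minimum lowered the members' contacts at ZT0, ZT6, ZT12 and ZT18 from 102, 112, 120 and 125 to 54, 57, 70 and 77 with a score of at least 7, and to 19, 23, 32 and 30 with a score of at least 10. The share listed at all 4 timepoints was then 28.4% and 28.6% (33.7% and 34.6% of all pairs). When another end within 10 kb counted as the same contact, it was 71.3%, and the share at 1 timepoint 8.99% (68.5% and 11.5% over all baits). The median distance was 92.2 kb with a score of at least 10. The share that reached another bait was 26.2% with a score of at least 10, 23.1% without Fbp1 and 7.5% without Pklr. In the other order of the lists, the share with its highest score at ZT12 was 21.9% (26.2% of all pairs). Counting every bait with a transcript start gave Pfkfb1 8 contacts in place of 5. In that order the share scoring higher at ZT18 than at ZT6 turned from 65.6% to 26.6%, and the share listed at ZT6 and not at ZT18 was 23.8% in place of 14.4%. Of 64 alternative values of these results, 45 stayed within 1.5 times of the count or distance or within the interval of the share. The share scoring higher at ZT12 than at ZT0 stayed within its interval of 58.2 to 80.1 under all 6 alternatives tried. It was 63% (48.6 to 75.5) without Pcx and 64.5% (46.9 to 78.9) with a score of at least 7. Both of these intervals include the 53.4% of all such pairs. The other alternatives gave 67.2% to 70.5%. The alternatives without a gene and those of the scores were chosen after seeing the data. A missing pair has no score, so depth limits what presence and absence can show.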
